A study of Rattus norvegicus with 6 samples.

Results

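The potassium channel gene family covered here is every gene whose symbol starts with Kcn, the pore-forming subunits of potassium channels with their auxiliary subunits. Members were found by matching the transcript accession of each array probe to the rat RefSeq gene list, and every probe was kept as its own feature. This gave 117 probes for 90 genes, out of 30367 non-control probes on the array and 97 Kcn genes in the list. The rule goes by gene symbol and uses no measured value, but it was chosen with earlier results of these data known. Brain RNA came from 3 SPORTS rats and 3 wild type rats, with 1 single-colour Agilent array per rat. All 6 rats were males on the Wistar background, aged 15 weeks and sedentary. SPORTS is a mutant rat line known for high voluntary running, and the labels name no causal allele, no brain region and no treatment. The tissue was bulk brain, so fewer cells of a type and less RNA per cell cannot be told apart in any value below. The comparison asks which potassium channel transcripts differ between brains of the mutant line and of wild type rats at rest.

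Potassium channels let potassium leave or enter a cell along its gradient, and in neurons they set the resting potential, end the action potential and limit repetitive firing. Voltage-gated (Kv) channels are tetramers of pore subunits that open on depolarisation, and cytoplasmic or membrane partners tune their gating and their place in the cell. Other branches of the family are opened by calcium or sodium, pass current best inward, or carry a steady leak (K2P channels). Several members are best known from glia, where Kcnj10 and Kcnj16 take up potassium released by active neurons.

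Signals are log2 values of the processed intensity in which 0 is the 75th percentile of the array, so levels of different probes are not comparable and differences of the same probe are. Values of the 3 rats of a group are given in the order of the replicate numbers. Differences are SPORTS minus wild type on the log2 scale with their SE from limma, and a probe was called where limma's p, adjusted over all 20658 tested probes, was under 0.05. Correlations across probes were 0.995 to 0.997 between arrays of the same group and 0.987 to 0.991 between groups. The label brain was checked against markers, and 7 neuronal, 12 astrocyte and 11 oligodendrocyte marker probes were bright enough to be tested. The arrays lay on 1 slide. Row 1 of the slide held wild type replicates 1 and 2, and row 2 held wild type replicate 3 with all SPORTS arrays. Slide row can therefore be separated from the line only through that 1 wild type array, and the difference within row 2 equals the difference with slide row as a block.

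SPORTS replicate 1 stood apart from the other 5 arrays in markers of the cerebellum and the choroid plexus. Pcp2, a Purkinje cell gene, read -0.51, -3.56 and -3.58 in SPORTS, against -3.75, -3.66 and -3.54 in wild type. The mean level of the 7 tested cerebellar probes ran from -2.23 to -1.17 in SPORTS and from -2.37 to -2.30 in wild type. Ttr, the main secreted protein gene of the choroid plexus, read 6.06, 6.98 and 7.16 in SPORTS, against 7.07, 7.02 and 7.11 in wild type. The 5 choroid plexus markers averaged between -2.12 and -0.87 in SPORTS and between -1.07 and -0.95 in wild type. Neither list had a called probe.

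Of the 117 Kcn probes, 98 (76 genes) passed the filter on dim probes, 95 were well above background on all 6 arrays, and 14 were so on none. In SPORTS, 9 Kcn probes were higher and 26 were lower, which is 35.7% of the 98 tested. Over all 20658 tested probes 21.1% were called, 11.1% higher and 10.1% lower. The lower probes belonged to 23 genes, led by the voltage-gated channel gene Kcna5, the mechanosensitive leak channel gene Kcnk2, the ether-a-go-go family genes Kcnh4 and Kcnh5, and the M-current gene Kcnq3. The higher probes belonged to 9 genes, led by the leak channel genes Kcnk6 and Kcnk5, the Kv4 partner gene Kcnip1 and the inward rectifier gene Kcnj16.

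Most differences were small. The median absolute difference of the called Kcn probes was 0.31, against 0.33 for all called probes, 13 of the 35 reached 0.5, and 1, Kcna5, reached 1. The median difference of all 98 tested Kcn probes was -0.08, against -0.00165 for all tested probes, and 65.3% of Kcn probes had a difference below 0, against 50.4% of all. The values of the 2 groups did not overlap for 56 Kcn probes, 20 higher and 36 lower in SPORTS. Over all tested probes 41.9% did not overlap, 21.4% higher and 20.5% lower.

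**Figure D1:**
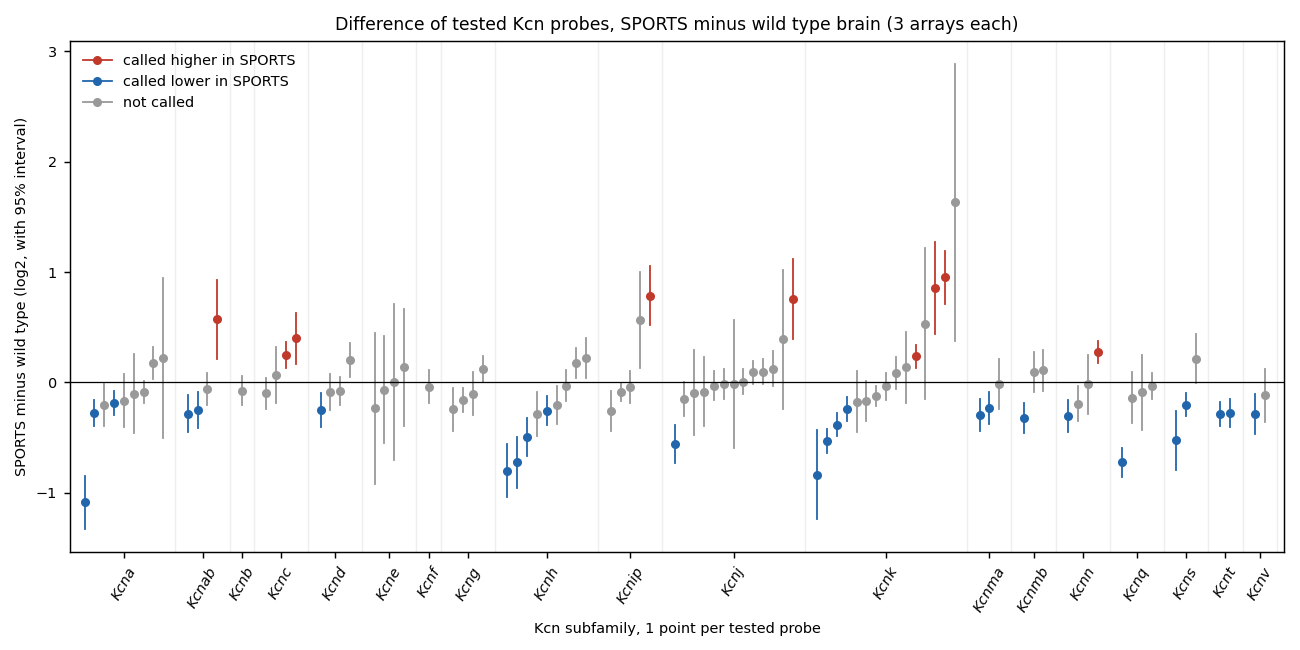
Difference between SPORTS and wild type (log2, vertical axis) of 94 of the 98 tested Kcn probes, grouped by subfamily along the horizontal axis; points are limma estimates, bars 95% intervals, and colour marks the call. Called falls lie in Kcna, Kcnh, Kcnk, Kcnma, Kcns, Kcnt and others, the 9 called rises in Kcnab, Kcnc, Kcnip, Kcnj, Kcnk and Kcnn, and the 1 called fall beyond 1 is Kcna5.

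With slide row as a block, 8 of the 35 calls were kept, 27 were lost and none of the 35 differences changed sign. The lost calls had adjusted p between 0.0505 (Kcnk5) and 0.276 (Kcnd1) with the block. The kept calls were the falls of Kcna5, Kcnh4, Kcnh5, Kcnh7, Kcnk2 (1 of its 2 called probes), Kcnk13 and Kcnq3 and the rise of Kcnk6. That is 8 of 98 Kcn probes (8.16%), against 7.73% of all tested probes under the same block, close to the background. Leaving out 1 array at a time left 14 of the 35 calls in place throughout. The number lost was 15, 18 and 12 without SPORTS replicates 1, 2 and 3, and 13, 9 and 16 without wild type replicates 1, 2 and 3. Falls numbered 15 without SPORTS replicate 1, 12 without SPORTS replicate 2 and 16 without wild type replicate 3. Rises numbered 5 without wild type replicate 1. Without the filter on dim probes 17 of the 35 calls remained, and within slide row 2 alone 7 did.

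Normexp background correction, which adds an offset to every signal, shrank 7 called differences by more than 1.5 times. Kcna5 moved to -0.59, Kcnh5 to -0.25, Kcns2 to -0.25, Kcnk2 probe A_64_P114986 to -0.38, Kcnt2 to -0.16 and Kcnk5 to 0.51, and these stayed called. Kcnn2 A_43_P12019 moved to 0.16 and lost its call (limma adjusted p = 0.0798).

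**Figure D2:**
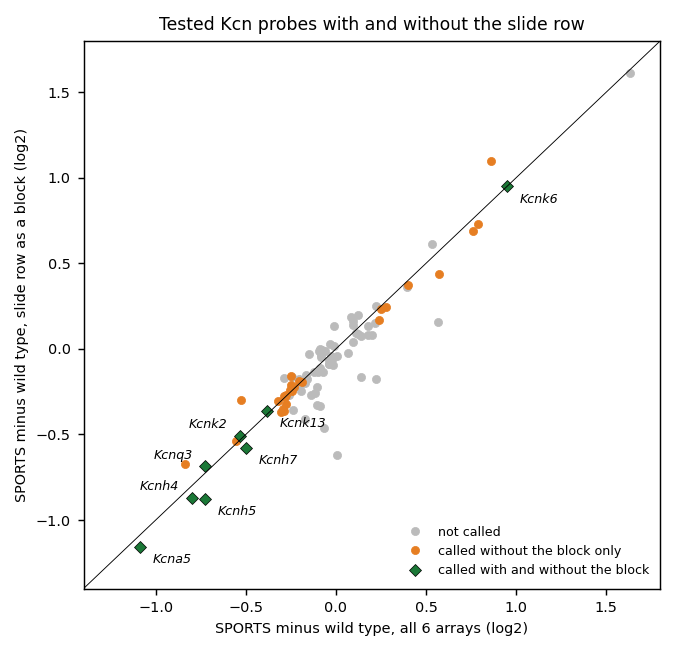
Difference of 94 of the 98 tested Kcn probes over all 6 arrays (horizontal axis, log2) against its difference with slide row as a block (vertical axis, log2); the line marks equal values. The 34 called probes drawn lie near the line, and the 8 called under both fits are labelled by gene.

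**Figure D3:**
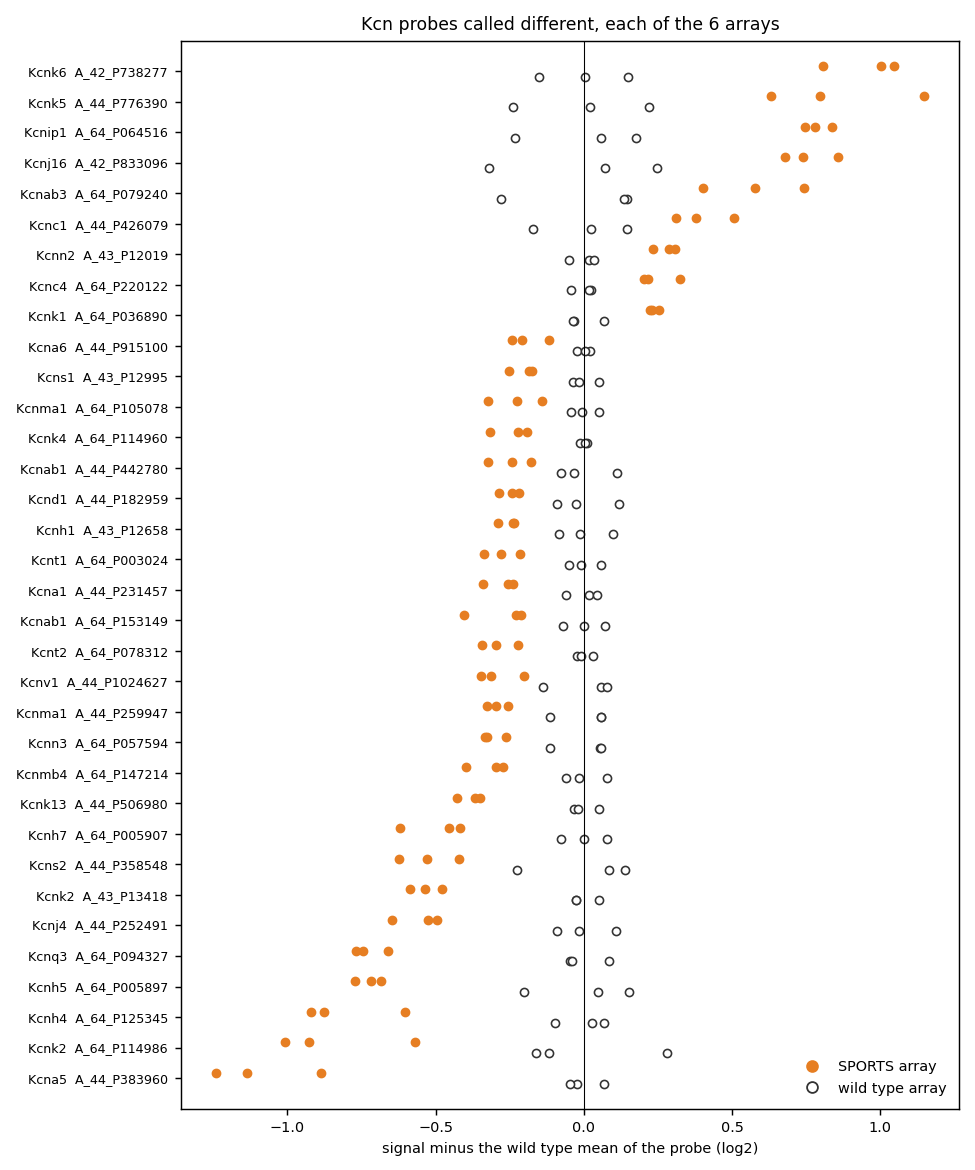
34 of the 35 called Kcn probes (rows) on each of the 6 arrays, as signal minus the wild type mean of that probe (log2); filled points are SPORTS arrays, drawn above the open wild type arrays of the same probe. The SPORTS and wild type points do not overlap in any row, but the rows were chosen by their calls, so this is no separate result. Over all tested probes 41.9% did not overlap.

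Promoter sequences are shown so that the upstream letters of the members with the largest differences can be set side by side. They are those of the 3 genes with the largest called fall and the 3 with the largest called rise that have an entry in the RefSeq promoter table (GRCr8), which holds 61 of the 90 genes. Each is the 250 bases before the annotated start, written 5′ to 3′ on the strand of the gene, with searched motifs in capitals. The first 3 genes were lower in SPORTS and the other 3 higher.
Kcna5, GRCr8 chr4:161043810-161044059, minus strand: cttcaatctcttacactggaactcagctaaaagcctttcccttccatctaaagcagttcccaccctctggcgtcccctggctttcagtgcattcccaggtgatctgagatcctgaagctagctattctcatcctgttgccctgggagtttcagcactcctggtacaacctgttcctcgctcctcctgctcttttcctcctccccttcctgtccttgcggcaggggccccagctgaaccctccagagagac
Kcnk2, GRCr8 chr13:103438643-103438892, minus strand: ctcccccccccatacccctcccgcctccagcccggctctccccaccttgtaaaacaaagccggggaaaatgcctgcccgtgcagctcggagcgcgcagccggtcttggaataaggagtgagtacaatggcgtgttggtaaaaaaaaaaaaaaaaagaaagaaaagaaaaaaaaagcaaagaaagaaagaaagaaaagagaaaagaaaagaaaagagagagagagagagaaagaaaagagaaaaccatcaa
Kcnh4, GRCr8 chr10:86188477-86188726, minus strand: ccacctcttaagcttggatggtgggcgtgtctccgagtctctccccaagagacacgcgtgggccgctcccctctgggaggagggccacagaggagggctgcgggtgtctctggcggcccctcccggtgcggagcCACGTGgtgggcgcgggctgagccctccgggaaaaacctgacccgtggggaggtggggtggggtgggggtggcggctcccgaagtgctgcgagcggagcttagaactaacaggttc
Kcnk5, GRCr8 chr15:4171375-4171624, plus strand: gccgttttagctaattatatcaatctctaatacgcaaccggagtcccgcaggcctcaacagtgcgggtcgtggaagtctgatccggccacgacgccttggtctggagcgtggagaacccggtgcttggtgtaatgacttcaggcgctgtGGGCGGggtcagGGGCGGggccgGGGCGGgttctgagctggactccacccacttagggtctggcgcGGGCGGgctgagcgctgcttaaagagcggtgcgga
Kcnip1, GRCr8 chr10:19093026-19093275, minus strand: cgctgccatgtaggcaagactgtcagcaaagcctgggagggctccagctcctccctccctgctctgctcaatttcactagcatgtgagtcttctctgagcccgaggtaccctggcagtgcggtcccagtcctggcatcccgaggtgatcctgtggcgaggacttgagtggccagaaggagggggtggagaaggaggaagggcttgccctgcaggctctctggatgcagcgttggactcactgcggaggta
Kcnj16, GRCr8 chr10:96517074-96517323, plus strand: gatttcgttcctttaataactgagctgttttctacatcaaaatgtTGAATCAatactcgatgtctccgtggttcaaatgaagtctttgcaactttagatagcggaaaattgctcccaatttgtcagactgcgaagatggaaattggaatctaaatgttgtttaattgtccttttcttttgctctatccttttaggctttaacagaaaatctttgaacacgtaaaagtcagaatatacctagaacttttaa
The motifs searched on both strands were the GC box (GGGCGG), the TATA box (TATAAA), the E-box (CACGTG), the cAMP response element (TGACGTCA), the AP-1 site (TGANTCA) and the RE1 core (TTCAGCACC). None of them overlaps another in these windows. The Kcnk5 window held 4 GC boxes, the Kcnh4 window 1 E-box and the Kcnj16 window 1 AP-1 site. In the shares that follow, each Kcn gene counts only with its first listed window, while all windows count every entry of the promoter table. A GC box was present in 49.2% of the 61 Kcn windows and in 30.5% of all 33469 windows of this length. An E-box was present in 3.28% of Kcn windows and 5.59% of all, and an AP-1 site in 3.28% and 6.34%. The base composition of the 6 windows ran from 33.6% GC in Kcnj16 to 68.8% in Kcnh4, and no searched motif was present in more than 1 of the 6.

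Among the Kv1 pore genes (Kcna), 3 of 9 tested probes were lower and none was higher (33.3%, against 21.1% of all tested probes called and 10.1% lower), and 1 call was kept with slide row as a block. Kcna5, which encodes Kv1.5, a delayed rectifier also known from the atrium of the heart, had the largest fall of the family. Its probe read -4.83, -4.93 and -4.58 in SPORTS, against -3.72, -3.74 and -3.62 in wild type. All SPORTS arrays were below all wild type arrays, and the transcript was 2.13-fold lower (difference -1.09 ± 0.10, limma adjusted p = 0.00158). The fall was kept with slide row as a block (difference -1.16, adjusted p = 0.0185) and under all 18 alternatives. It ran from -1.19 to -0.59 there, smallest under normexp background correction. The SPORTS signal of this probe was among the lower ones of the tested Kcn probes, though well above background on every array. Kcna1, the axonal Kv1.1 gene whose loss causes seizures in mice, read 2.31, 2.33 and 2.22 in SPORTS, against 2.50, 2.58 and 2.61 in wild type. It was 1.21-fold lower (difference -0.28 ± 0.05, limma adjusted p = 0.0119), a call that held without any 1 array but not with the block (adjusted p = 0.0584).

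Kcna6, another Kv1 pore gene, had 1 called and 1 uncalled probe. The called probe (A_44_P915100) read 1.15, 1.18 and 1.27 in SPORTS, against 1.37, 1.41 and 1.39 in wild type, and was 1.14-fold lower (difference -0.19 ± 0.04, limma adjusted p = 0.0324). The second (A_64_P384267) read -2.31, -2.32 and -2.26 in SPORTS, against -2.20, -2.17 and -2.26 in wild type, and did not pass (difference -0.08 ± 0.04, limma adjusted p = 0.195). All SPORTS arrays lay below all wild type arrays on both probes, on the second by less than the last digit given. The call was lost without SPORTS replicates 1 or 2 and without any 1 wild type array (adjusted p up to 0.117). Kcna2, the Kv1.2 gene that pairs with Kv1.1 in axons, read -0.11, -0.17 and -0.21 in SPORTS, against -0.44, -0.34 and -0.24 in wild type, and did not pass (difference 0.18 ± 0.06, limma adjusted p = 0.0944). Kcna3, Kcna4 and both probes of Kcna7 did not pass either, with differences from -0.20 to 0.22, and Kcna10 was not tested.

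The cytoplasmic Kv beta subunits (Kcnab) speed inactivation of Kv1 channels and bind to their inner face. Kcnab1 is the only gene of the family with several tested probes that were all called. Its probe A_44_P442780 read -2.90, -2.99 and -2.84 in SPORTS, against -2.55, -2.74 and -2.70 in wild type, and A_64_P153149 read 1.76, 1.78 and 1.58 in SPORTS, against 2.06, 1.92 and 1.99 in wild type. They were 1.19-fold lower and 1.22-fold lower (limma adjusted p = 0.0483 and 0.0366). Kcnab3 went the other way. It read -1.02, -1.18 and -1.36 in SPORTS, against -2.04, -1.61 and -1.63 in wild type, 1.49-fold higher (difference 0.57 ± 0.14, limma adjusted p = 0.041). These 3 calls were each lost when any 1 of the 6 arrays was left out (adjusted p up to 0.152), and Kcnab2 did not pass (difference -0.06 ± 0.06, limma adjusted p = 0.536).

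Kcnb2, which encodes a delayed rectifier of the Kv2 group, did not pass (difference -0.07 ± 0.05, limma adjusted p = 0.398). Of the silent subunits, which form no channel alone and modify Kv2 channels (Kcnf, Kcng, Kcns, Kcnv), 3 of 10 tested probes were lower and none higher (10.1% of all tested probes were lower), and none of these calls was kept with slide row as a block. Kcns2 read -5.04, -5.13 and -4.93 in SPORTS, against -4.37, -4.42 and -4.73 in wild type, and was 1.44-fold lower (difference -0.53 ± 0.11, limma adjusted p = 0.0233). Kcnv1 read 0.60, 0.71 and 0.56 in SPORTS, against 0.97, 0.77 and 0.99 in wild type, and was 1.22-fold lower (difference -0.29 ± 0.07, limma adjusted p = 0.0422). The third, Kcns1, was 1.15-fold lower (adjusted p = 0.0224), a call lost without any 1 array other than wild type replicate 1 (adjusted p up to 0.0731). The calls of Kcns2 (without SPORTS replicates 1 or 2 or wild type replicates 1 or 2, and at -0.30 with the block) and Kcnv1 (without any 1 array other than wild type replicate 2) were lost, with adjusted p up to 0.0896 and 0.127.

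The Kv3 genes (Kcnc) were the only Kv pore subfamily with called rises and no fall, 2 of 5 tested probes (11.1% of all tested probes were higher), and neither call was kept with slide row as a block. Kv3 channels close quickly and let neurons fire at high rates, above all fast-spiking interneurons and brainstem and cerebellar neurons. Kcnc1 (Kv3.1) read 0.15, -0.05 and 0.02 in SPORTS, against -0.53, -0.21 and -0.34 in wild type, and was 1.32-fold higher (difference 0.40 ± 0.09, limma adjusted p = 0.034). Kcnc4 (Kv3.4) read -2.09, -2.22 and -2.20 in SPORTS, against -2.46, -2.39 and -2.40 in wild type, and was 1.19-fold higher (difference 0.25 ± 0.05, limma adjusted p = 0.0173). The groups did not overlap for either, but Kcnc1 was lost without any 1 array other than wild type replicate 2 (adjusted p up to 0.0967), and Kcnc4 without wild type replicates 1 or 3 (up to 0.0555). The 2 probes of Kcnc2 had opposite signs and did not pass.

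Kv4 channels (Kcnd) carry the A-type current of dendrites. Of 4 tested probes of their pore genes 1 was called (25%, near the 21.1% of all tested probes). Kcnd1 (Kv4.1) read -2.06, -2.13 and -2.09 in SPORTS, against -1.72, -1.87 and -1.93 in wild type, and was 1.19-fold lower (difference -0.25 ± 0.06, limma adjusted p = 0.0389), a call lost without any 1 array other than wild type replicate 3 (adjusted p up to 0.133). With the block its difference was -0.16. Kcnd2, the main Kv4 gene of the forebrain, had overlapping groups on both probes. Probe A_42_P539787 read 0.07, 0.04 and 0.17 in SPORTS, against 0.22, 0.20 and 0.10 in wild type, and A_64_P154548 read 1.34, 1.30 and 1.46 in SPORTS, against 1.45, 1.55 and 1.37 in wild type, with differences of -0.08 ± 0.05 and -0.09 ± 0.07 (adjusted p = 0.366 and 0.41). The calcium-binding KChIP subunits (Kcnip) bring Kv4 channels to the surface. Kcnip1 was higher, and its probe A_64_P064516 read -1.62, -1.71 and -1.68 in SPORTS, against -2.69, -2.28 and -2.40 in wild type. That probe was 1.73-fold higher (difference 0.79 ± 0.11, limma adjusted p = 0.00607), and the call held without any 1 array but not with slide row as a block (difference 0.73, adjusted p = 0.0678). The second Kcnip1 probe (A_44_P499954) read -3.71, -3.83 and -3.70 in SPORTS, against -4.58, -4.45 and -3.91 in wild type, and did not pass (difference 0.56 ± 0.18, limma adjusted p = 0.0759). Its highest wild type array was replicate 3, the one in the slide row of the SPORTS arrays, and its difference with the block was 0.16. Kcnip2, the KChIP gene most studied in heart, read -2.39, -2.44 and -2.48 in SPORTS, against -2.04, -2.32 and -2.17 in wild type, below wild type on every SPORTS array without passing (difference -0.26 ± 0.07, limma adjusted p = 0.0594).

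The Kcnh genes encode the EAG, ERG and ELK channels, slow voltage-gated channels with a cyclic nucleotide binding homology domain. Of 9 tested probes 4 were lower and none higher, against 10.1% lower over all tested probes. Groups did not overlap for 8 of the 9, against 41.9% of all tested probes. With slide row as a block 3 of the 9 tested probes were called, against 7.73% of all tested probes, and these 3 were among the 4. Kcnh4, an ELK gene, read -2.43, -2.16 and -2.47 in SPORTS, against -1.53, -1.65 and -1.49 in wild type. It was 1.74-fold lower (difference -0.80 ± 0.10, limma adjusted p = 0.00412), with a blocked difference of -0.87 (adjusted p = 0.0352). Kcnh5, an EAG gene, read -5.23, -5.27 and -5.32 in SPORTS, against -4.50, -4.75 and -4.40 in wild type. It was 1.65-fold lower (difference -0.73 ± 0.09, limma adjusted p = 0.00507) and remained called under all 18 alternatives, with a difference that shrank to -0.25 under normexp background correction. This probe was well above background on every array, but its SPORTS signal was among the lowest of the tested Kcn probes.

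Kcnh7, an ERG gene, read -2.94, -2.91 and -3.11 in SPORTS, against -2.49, -2.57 and -2.41 in wild type, and was 1.41-fold lower (difference -0.50 ± 0.07, limma adjusted p = 0.00681; with the block, adjusted p = 0.0363). Kcnh1, the founding EAG gene, read 1.35, 1.40 and 1.41 in SPORTS, against 1.74, 1.56 and 1.63 in wild type, and was 1.19-fold lower (difference -0.25 ± 0.06, limma adjusted p = 0.0258). The Kcnh1 call was lost without any 1 SPORTS array or wild type replicate 3 (adjusted p up to 0.0857). The other Kcnh genes did not follow 1 direction. Both probes of Kcnh3 were below wild type on every SPORTS array (-0.20 ± 0.07 and -0.29 ± 0.08, adjusted p = 0.0962 and 0.0574). Both probes of Kcnh2, the ERG gene behind a cardiac long QT syndrome in humans, were above it (0.18 ± 0.05 and 0.22 ± 0.07, adjusted p = 0.0705 and 0.0865). None of these 4 probes passed.

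Kcnq3 encodes a subunit of the M-channel, which carries a slow current that acetylcholine shuts off. Kcnq3 probe A_64_P094327 read 0.44, 0.55 and 0.46 in SPORTS, against 1.29, 1.16 and 1.17 in wild type. It was 1.65-fold lower (difference -0.73 ± 0.05, limma adjusted p = 0.000856), the smallest adjusted p of the family, and was kept under all 18 alternatives and with the block (difference -0.69, adjusted p = 0.0156). The second Kcnq3 probe, A_64_P094322, read -2.45, -2.37 and -2.36 in SPORTS, against -2.31, -2.36 and -2.42 in wild type, so its groups overlapped and its difference was near 0 (difference -0.03 ± 0.05, limma adjusted p = 0.703). The transcript positions of the 2 probes were not analysed here. Kcnq1 did not pass on either of its probes.

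Inward rectifiers (Kcnj) had 1 probe higher and 1 lower among 13 tested (15.4%, near the 21.1% of all tested probes), and neither call was kept with slide row as a block. Kcnj4, which encodes Kir2.3, a strong rectifier of forebrain neurons, read -1.23, -1.20 and -1.36 in SPORTS, against -0.60, -0.80 and -0.72 in wild type. It was 1.47-fold lower (difference -0.56 ± 0.07, limma adjusted p = 0.00435), and the call held without any 1 array but missed the threshold with slide row as a block (adjusted p = 0.0515). Kcnj16, which encodes Kir5.1, the pH-sensitive partner of the glial channel Kir4.1, read -1.75, -1.81 and -1.63 in SPORTS, against -2.81, -2.24 and -2.42 in wild type. It was 1.69-fold higher (difference 0.76 ± 0.15, limma adjusted p = 0.0186), a call lost without any 1 SPORTS array or wild type replicate 3 (adjusted p up to 0.066). Its lowest array was wild type replicate 1.

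Kcnj10, the Kir4.1 gene itself, read -4.89, -5.26 and -4.89 in SPORTS, against -5.12, -4.65 and -5.004 in wild type, and did not pass (difference -0.09 ± 0.16, limma adjusted p = 0.728). The signal of its probe was among the lowest of the tested Kcn probes, though well above background on every array. Astrocytes are the cells best known for both channels. Their marker list had 6 probes higher and 2 lower of 12 tested (66.7%, against 21.1% of all tested probes). With slide row as a block 2 of these 12 probes, both of Aqp4, were called. Mean levels of the list were 1.76 to 1.801 in SPORTS and 1.55 to 1.62 in wild type. The part of astrocytes in the Kcnj16 rise was not tested. The G protein-gated channel genes of neurons did not pass. Kcnj3 read 2.43, 2.42 and 2.36 in SPORTS, against 2.42, 2.33 and 2.50 in wild type (difference -0.01 ± 0.05, limma adjusted p = 0.883) and Kcnj6 read -2.44, -2.47 and -2.47 in SPORTS, against -2.52, -2.51 and -2.62 in wild type (difference 0.09 ± 0.04, limma adjusted p = 0.178). Both probes of Kcnj9 and 1 of Kcnj5 also did not pass, and the KATP pore genes Kcnj8 and Kcnj11 had uncalled differences of 0.10 ± 0.05 and -0.15 ± 0.06.

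K2P leak channels (Kcnk) moved in both directions, with 3 probes higher and 4 lower of 15 tested (46.7%, against 21.1% of all tested probes), and 3 of these 7 calls were kept with slide row as a block. Kcnk2 encodes TREK-1, a channel opened by stretch and fatty acids and closed by many transmitters. Its probe A_43_P13418 read 1.17, 1.28 and 1.22 in SPORTS, against 1.81, 1.73 and 1.73 in wild type, and was 1.45-fold lower (difference -0.53 ± 0.04, limma adjusted p = 0.00136). This call was kept under all 18 alternatives and with the block (difference -0.51, adjusted p = 0.0216). Probe A_64_P114986 read -5.03, -5.11 and -4.67 in SPORTS, against -4.22, -3.82 and -4.26 in wild type, and was 1.78-fold lower (difference -0.84 ± 0.16, limma adjusted p = 0.0192), a call lost without SPORTS replicates 1 or 2 (adjusted p up to 0.0746). Probe A_64_P053471 read -3.15, -3.21 and -3.14 in SPORTS, against -3.03, -3.06 and -3.03 in wild type, again below wild type on every SPORTS array, but did not pass (difference -0.12 ± 0.04, limma adjusted p = 0.069). Kcnk4, the related TRAAK gene, read -1.57, -1.54 and -1.67 in SPORTS, against -1.34, -1.37 and -1.35 in wild type, and was 1.18-fold lower (difference -0.24 ± 0.04, limma adjusted p = 0.0143; without wild type replicate 3, adjusted p = 0.0519).

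Kcnk13 encodes THIK-1, known from mouse and human microglia as their main resting potassium channel. Probe A_44_P506980 read -1.34, -1.40 and -1.32 in SPORTS, against -1.004, -0.92 and -0.99 in wild type, and was 1.3-fold lower (difference -0.38 ± 0.04, limma adjusted p = 0.00299; with the block, adjusted p = 0.0397). Probe A_64_P027174 read -4.01, -4.45 and -4.22 in SPORTS, against -4.54, -4.26 and -4.31 in wild type, with overlapping groups (difference 0.14 ± 0.13, limma adjusted p = 0.514). Of 9 tested microglial marker probes 2 were lower and none higher (22.2%, near the 21.1% of all tested probes). Both were probes of Tmem119, and both were kept with the block. Aif1, Csf1r, Cx3cr1, Itgam and P2ry12 did not pass, and the median difference of the 9 probes was -0.00252. Their mean level ran from -0.99 to -0.91 in SPORTS and from -0.85 to -0.75 in wild type. Their part in the Kcnk13 difference was not tested.

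Kcnk6 encodes TWIK-2, a weak rectifier known from blood vessels and macrophages. It read -1.93, -1.97 and -2.17 in SPORTS, against -2.83, -3.12 and -2.97 in wild type, with all SPORTS arrays above all wild type arrays. It was 1.93-fold higher (difference 0.95 ± 0.10, limma adjusted p = 0.00253), the only rise kept with slide row as a block (difference 0.95, adjusted p = 0.0333) and the only rise kept under all 18 alternatives. Kcnk5, the acid-sensitive TASK-2 gene, read -3.24, -3.76 and -3.59 in SPORTS, against -4.37, -4.17 and -4.63 in wild type, and was 1.81-fold higher (difference 0.86 ± 0.17, limma adjusted p = 0.0197). Its difference grew to 1.10 with the block (adjusted p = 0.0505), and the call was lost without SPORTS replicate 3 or wild type replicates 1 or 3 (adjusted p up to 0.0602). Kcnk1, the TWIK-1 gene of astrocytes and neurons, read 2.52, 2.55 and 2.52 in SPORTS, against 2.26, 2.26 and 2.36 in wild type, and was 1.18-fold higher (difference 0.24 ± 0.04, limma adjusted p = 0.0141; without SPORTS replicate 2, adjusted p = 0.0655). The largest fitted difference of the family was that of Kcnk15, which did not pass. Kcnk15 read -4.32, -5.13 and -5.46 in SPORTS, against -7.50, -5.73 and -6.58 in wild type (difference 1.63 ± 0.51, limma adjusted p = 0.0747), and it was well above background on 3 SPORTS arrays but on only 1 wild type array.

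Channels opened by calcium or sodium (Kcnma, Kcnn, Kcnt) had 1 probe higher and 5 lower of 9 tested (66.7%, against 21.1% of all tested probes). None of these 6 calls was kept with slide row as a block (adjusted p from 0.0701 to 0.209). Kcnma1 encodes the BK channel, which joins depolarisation and calcium entry to repolarise the spike. Its probe A_44_P259947 read -1.51, -1.58 and -1.54 in SPORTS, against -1.19, -1.36 and -1.19 in wild type, and A_64_P105078 read -1.20, -1.10 and -1.02 in SPORTS, against -0.83, -0.92 and -0.89 in wild type. They were 1.22-fold lower and 1.17-fold lower (limma adjusted p = 0.0201 and 0.0401). The third probe, A_64_P131632, read -2.64, -2.51 and -2.45 in SPORTS, against -2.36, -2.53 and -2.67 in wild type, with overlapping groups (difference -0.01 ± 0.09, limma adjusted p = 0.933). Without SPORTS replicates 1 or 2 or wild type replicates 1 or 3 neither call remained (adjusted p up to 0.0829 and 0.121), and each was lost without 1 further array. Kcnmb4, the BK beta subunit of neurons, read 2.60, 2.72 and 2.70 in SPORTS, against 3.08, 2.94 and 2.98 in wild type. It was 1.25-fold lower (difference -0.32 ± 0.05, limma adjusted p = 0.0123), which held without any 1 array but not with the block (adjusted p = 0.106), while both probes of Kcnmb2 did not pass.

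The SK genes, whose small-conductance channels carry the slow pause after a spike, split. Kcnn3 read -2.20, -2.21 and -2.13 in SPORTS, against -1.99, -1.82 and -1.81 in wild type, and was 1.24-fold lower (difference -0.31 ± 0.06, limma adjusted p = 0.018), a call lost without SPORTS replicates 1 or 2 or wild type replicates 2 or 3 (adjusted p up to 0.0769). Kcnn2 read -3.81, -3.86 and -3.79 in SPORTS, against -4.08, -4.15 and -4.07 in wild type, and was 1.21-fold higher (difference 0.28 ± 0.04, limma adjusted p = 0.0079), which held without any 1 array but not with the block (adjusted p = 0.0821) or normexp background correction. The sodium-activated channel genes both fell. Kcnt1, the Slack gene, read -0.08, -0.14 and -0.20 in SPORTS, against 0.20, 0.09 and 0.13 in wild type, and was 1.21-fold lower (difference -0.28 ± 0.05, limma adjusted p = 0.0145; without SPORTS replicate 2, adjusted p = 0.0635). Kcnt2, the Slick gene, read -3.53, -3.45 and -3.58 in SPORTS, against -3.20, -3.25 and -3.24 in wild type, and was 1.22-fold lower (difference -0.29 ± 0.04, limma adjusted p = 0.00895), which held without any 1 array but not with the block (adjusted p = 0.0836).

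Among the small membrane subunits (Kcne), none of 4 tested probes was called. Kcne2, known from the choroid plexus epithelium of mice, and Kcnj13, the inward rectifier of the same epithelium, both dropped in SPORTS replicate 1. Kcne2 read -1.94, -1.06 and -0.88 in SPORTS, against -1.06, -1.18 and -0.93 in wild type, and Kcnj13 read -1.99, -1.29 and -1.06 in SPORTS, against -1.34, -1.50 and -1.46 in wild type. Folr1, a choroid plexus marker, read -2.11, -0.97 and -0.72 in SPORTS, against -0.87, -0.94 and -0.91 in wild type, lowest in the same rat. Kcng4 and Kcnk10 stood out the opposite way. Kcng4, a silent subunit gene that was above background on 2 arrays of each group and so not tested, read -3.46, -5.68 and -5.45 in SPORTS, against -5.92, -5.62 and -5.79 in wild type. Kcnk10 probe A_64_P109118 read -3.18, -4.11 and -4.17 in SPORTS, against -4.45, -4.18 and -4.43 in wild type, highest in the rat with the high cerebellar markers, and did not pass (difference 0.53 ± 0.28, limma adjusted p = 0.235). The second Kcnk10 probe had no such value and read -4.26, -4.24 and -4.21 in SPORTS, against -4.22, -4.32 and -4.42 in wild type. These genes were chosen after their values were seen, and the part of cerebellar or choroid plexus tissue in their values was not tested.

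**Figure D4:**
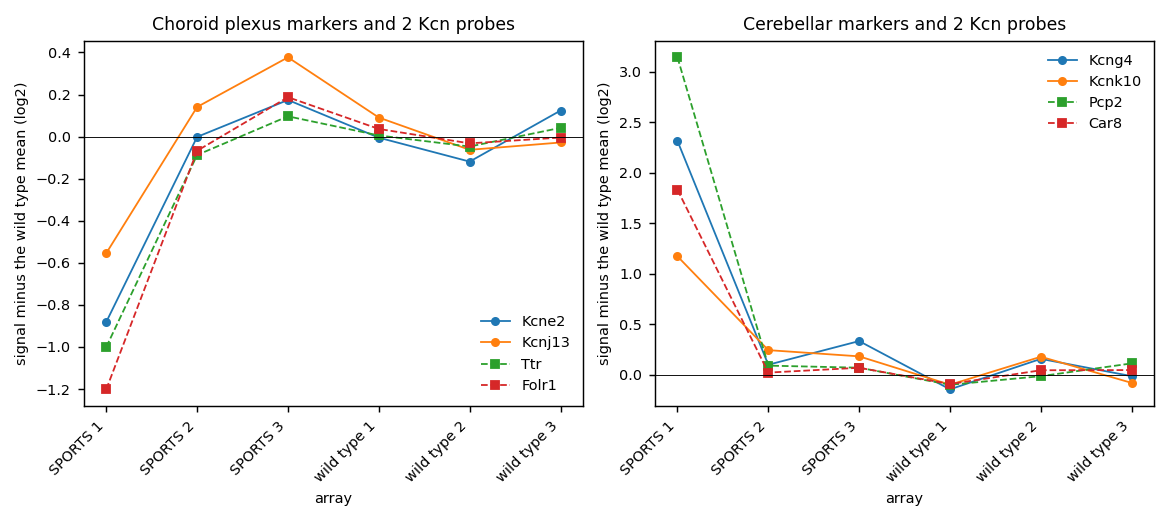
Signal minus the wild type mean (log2, vertical axis) on each array (horizontal axis) for 2 Kcn probes beside choroid plexus markers (left) and 2 Kcn probes beside cerebellar markers (right); solid lines are Kcn probes and dashed lines are markers. SPORTS 1 is the lowest array for all 4 genes on the left and the highest for all 4 on the right.

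Probes of the same gene often gave different calls. Of 20 genes with several tested probes, 13 had no call, 6 had called and uncalled probes (Kcna6, Kcnip1, Kcnk2, Kcnk13, Kcnma1 and Kcnq3) and 1, Kcnab1, had all probes called. No gene had probes called in opposite directions. The widest gaps were between the 2 probes of Kcnq3 and between the 3 of Kcnk2, as given above. Which transcript forms the probes detect was not analysed here.

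**Figure D5:**
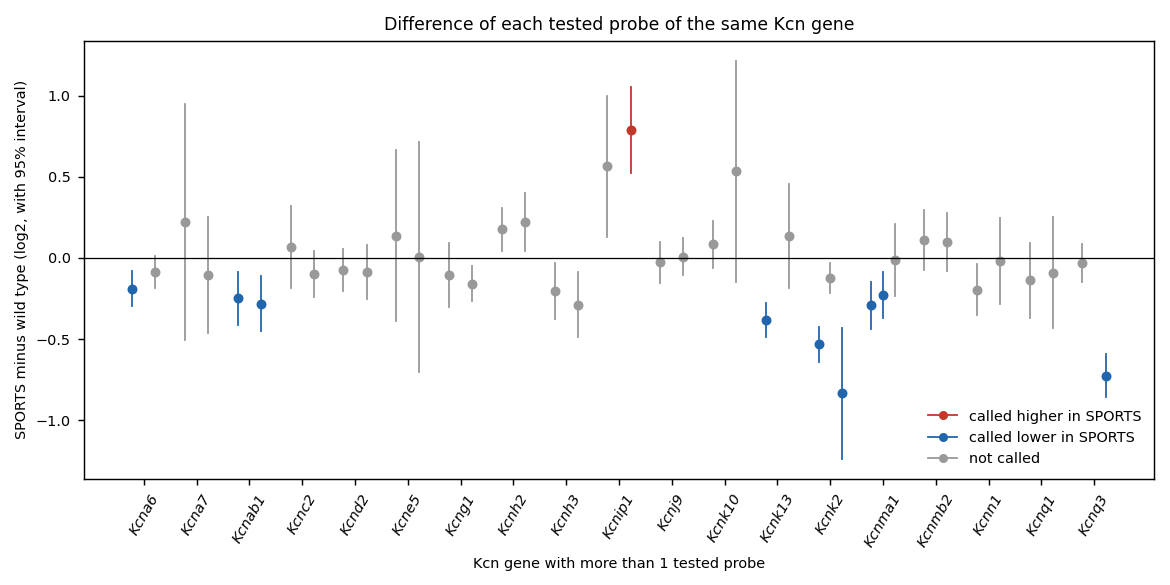
Difference between SPORTS and wild type (log2, vertical axis) of each tested probe of 19 of the 20 Kcn genes with several tested probes (horizontal axis); points are limma estimates and bars 95% intervals. Called and uncalled probes stand side by side for 6 genes, and no gene has calls in both directions.

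The 19 untested probes covered 14 genes with no tested probe at all. Of these, Kcna10, Kcne1, Kcne3, Kcnh8, Kcnj1, Kcnj15, Kcnk18, Kcnmb1, Kcnmb3 and Kcnn4 were not well above background on any array. Kcng4, Kcnj2, Kcnk9 and Kcnrg were so on some arrays of a group only. A further 7 genes of the RefSeq list had no matching probe here. They include Kcnu1, Kcnd2l1, Kcnk7, Kcnq5 and the pseudogenes Kcnk16-ps1 and Kcnk6-ps1.

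Genes outside the family that encode partners of these channels, or share their role in potassium balance, were read from the same fit. Of 43 tested probes for 36 genes, 3 were higher and 8 were lower (25.6%, against 21.1% of all tested probes). With slide row as a block 3 of the 43 were called, close to the 7.73% of all tested probes called under the same block. In the Kv1 complex of the axon, Lgi1 fell (difference -0.23 ± 0.04, limma adjusted p = 0.0172) and so did Dlg4, a scaffold gene of synapses (difference -0.40 ± 0.07, limma adjusted p = 0.0154). Cntn2, the adhesion gene of the juxtaparanode, rose (difference 0.30 ± 0.04, limma adjusted p = 0.00536), as did Lgi3 (difference 0.28 ± 0.07, limma adjusted p = 0.0394). Dpp6 and Dpp10, the membrane partners of Kv4, did not pass. Amigo1, a partner of Kv2 channels, was 1.15-fold lower (adjusted p = 0.0235). Lrrc26, a BK gamma subunit gene, was 1.29-fold lower (adjusted p = 0.00867), and Akap5, an anchor of M-channels, was 1.25-fold lower (adjusted p = 0.0106). Slc12a2, a chloride importer gene, rose on probe A_64_P163595 (difference 0.35 ± 0.06, limma adjusted p = 0.00993). Its probe A_42_P742882 did not pass (difference 0.13 ± 0.04, limma adjusted p = 0.0726). Calm2, 1 of the calmodulin genes, had 1 called probe, lower in SPORTS, of 7 tested for the calmodulin genes. Of the called genes named here Lrrc26 kept its call with the block (adjusted p = 0.0316). Lgi1, Dlg4, Cntn2, Lgi3, Amigo1, Akap5, Slc12a2 and Calm2 lost theirs (adjusted p from 0.0546 for Cntn2 to 0.198 for Lgi3), and the Dlg4 difference moved to -0.25.

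Markers of brain regions and cell types also differed between the groups. Of 95 tested marker probes 23 were higher and 20 lower (45.3%). Over all tested probes 21.1% were called, 11.1% higher and 10.1% lower. All 11 tested striatal marker probes were lower in SPORTS, with and without slide row as a block, by a median of -1.86. Their mean level ran from -1.90 to -1.65 in SPORTS and from 0.09 to 0.28 in wild type, and Adora2a, a receptor gene of striatal neurons, read -4.09, -3.13 and -3.29 in SPORTS, against -0.24, -0.50 and -0.54 in wild type. All 7 probes of meningeal and fibroblast genes were higher, with a median of 0.76 and mean levels of -0.25 to -0.04 in SPORTS and -1.03 to -0.82 in wild type, and 6 of the 7 calls were kept with the block. Oligodendrocyte markers had 4 probes higher and none lower of 11 (36.4%). Their mean levels were 2.05 to 2.13 in SPORTS and 1.87 to 2.002 in wild type. Neuronal markers had none higher and 2 lower of 7 (28.6%, near the 21.1% of all tested probes). Their mean levels were 2.64 to 2.68 in SPORTS and 2.74 to 2.78 in wild type. None of these oligodendrocyte and neuronal calls was kept with the block. Hindbrain markers had 2 probes higher of 2 tested, and thalamic markers 1 higher of 2. Cortical and hippocampal markers had 1 lower of 4, and hypothalamic markers 1 lower of 5. Endothelial markers had 1 higher of 6, and pericyte and smooth muscle markers 2 higher and 1 lower of 7. Of the calls in these further lists, only the hypothalamic one was kept with the block. The part of regional or cellular make-up of the samples in the Kcn differences was not tested.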

How the data were processed

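Per the file headers, each array was scanned and its spots quantified with Agilent Feature Extraction 10.10.1.1, and the deposited intensity values (processed signal) are background-subtracted and detrended within the array, without normalisation between arrays. The probe design is annotated on rn4. The value table that the authors deposited for the series gives these intensity values multiplied by a constant for each array (1.38 to 1.47). Whether spots were well above background, saturated or outliers was read from 0 or 1 flags in the deposited scan files.

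Here, outlier-flagged spots were dropped (3075 spot values), the log2 values of replicate spots were averaged, and the 75th percentile over the non-control spots of each array was subtracted. That percentile was 1530 to 1628 in processed signal on the 6 arrays, 20323 to 23261 probes per array were well above background, and no spot was saturated. Precision is limited by the number of arrays. Probes entered the test where over 0.5 of their spots were well above background on each array of SPORTS, of wild type or of both. SPORTS and wild type were compared with limma 3.58.1 in R 4.3.3 (two-sided moderated test, Benjamini-Hochberg over 20658 probes, threshold 0.05), with version 1.17.8 of the data.table package for reading. The scan files analysed here carry no gene names, so symbols came from the RefSeq list (GRCr8) by unversioned accession, for 18005 of 30367 probes. No gene coordinates are given other than those of promoter windows.

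Per-array values are printed for the 30 called Kcn probes with the largest absolute difference, for genes whose probes disagree, and for a list of well-studied brain channel genes; the other values by array were chosen after they were seen. The members and lists were chosen with earlier results of these data known. The procedure was tested on simulated data. Alternatives were other scalings, normexp background correction with an offset of 50 on the median spot brightness (mean brightness was planned, and the files analysed here hold the median), the deposited table, other filters, kept outlier spots, a trended variance, slide row as a block or slide row 2 alone, and leaving out each array. A percentile over averaged probes was added after seeing the data. Columns of other samples in the deposited table numbered 0. Some genes are not reported here by name or drawn in the figures, though counts over the family and over the lists include them.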

Additional observations from a re-analysis of the deposited data

How the results depend on the processing

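The main counts were 9 Kcn probes higher and 26 lower, a median difference of -0.08 and 21.1% of all tested probes called. Under the other scalings, normexp, the deposited table, the filter on both groups, kept outlier spots and the trended variance, counts ran from 9 to 13 higher and from 25 to 31 lower, and 34 or 35 of the 35 calls remained. The median difference of tested Kcn probes moved to -0.12 with median scaling and to -0.0558 with normexp. Without a filter on dim probes, where 30363 probes were tested, 4 Kcn probes were higher and 13 lower, and 7.72% of all probes were called. With slide row as a block, 1 was higher and 7 lower, the median was -0.12 and 7.73% of all probes were called. In slide row 2 alone, with 1 wild type array assumed to vary like the SPORTS arrays, 3 were higher and 4 lower, the median was -0.12 and 5.47% were called. Leaving out 1 array gave 5 to 9 higher, 12 to 19 lower, medians of -0.11 to -0.0502 and 10.7% to 15.4% called. For these counts the cause was not tested, other than that fewer arrays or more probes entered the test.

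No called Kcn probe changed sign under any of the 18 alternatives. With slide row as a block 8 of the 98 tested Kcn probes, none of them called, changed sign. The widest moves were to -0.62 for Kcne5 A_64_P066856 and, against differences of 0.14 and 0.22 over all 6 arrays, to -0.17 for Kcne5 A_64_P034740 and Kcna7 A_64_P000870. Signs under the other alternatives were read for the named and called probes. Kcnj3 A_44_P452163 was at 0.00241 with quantile normalisation and between -0.0586 and 0.0268 without single arrays. Kcnj10 A_64_P101968 was at 0.0159 with normexp and between -0.188 and 0.0444 without single arrays. Kcnma1 A_64_P131632 was at 0.00121 with normexp, at 0.13 with slide row as a block and in slide row 2 alone, and between -0.0861 and 0.0658 without single arrays. Kcnq3 A_64_P094322 was at 0.0292 with the block and in row 2 alone. No paired analysis was possible because the groups share fewer than 2 numbers in the labels. Dim probes limit what can be read, since 14 of the 117 Kcn probes were above background on no array.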
